A study of Bos grunniens with 6 samples.

Results

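Decorin (DCN), lumican (LUM), fibromodulin (FMOD) and the fibulins FBLN1, FBLN2 and FBLN5 are 6 secreted proteins of the connective tissue matrix, and their mRNAs were followed in cultured yak hair follicle cells. The rows were taken by gene symbol from a table of 15646 genes, each symbol had 1 row, and lumican is listed there under its older symbol LDC. That row carries the annotation terms collagen fibril organization and fibrillar collagen trimer. The samples were 3 cultures of dermal papilla cells (DPC), the mesenchymal cells at the base of the follicle, and 3 of hair matrix cells (HMC), the epithelial cells that surround the papilla. Both were isolated from skin of wild-type yak (Bos grunniens), labelled as dermal and epidermal cells, and kept in DMEM/F12 with 10% serum, 20 ng/mL EGF and 10 ng/mL IGF1. The labels call the cultures biological replicates and do not say whether they came from separate animals, nor give age or passage, so p-values measure the spread between these cultures. Polyadenylated RNA was sequenced, and the values are FPKM, fragments per kilobase of gene, scaled to the mapped fragments of each library. The reads recovered from the table summed to at least 13.1 to 13.4 M in DPC libraries and 13.7 to 14.0 M in HMC libraries (M, mega).

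Small leucine-rich proteoglycans are short curved proteins built of leucine-rich repeats that carry sulfated sugar chains and sit on collagen fibrils, where they govern how thick and how regular the fibrils become. Decorin also binds TGF-beta. Fibulins are chains of calcium-binding EGF-like modules that link elastic fibres, basement membranes and fibronectin to each other and to cells. In skin both families are made mainly by fibroblasts, and the dermal papilla is rich in proteoglycans.

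All 6 genes were higher in DPC than in HMC, by 23.4 to 74.1-fold in mean FPKM, and for each gene the lowest DPC culture lay far above the highest HMC culture. All 6 passed the test at an adjusted p of 0.05, as did 75.9% of all 11883 tested genes in either direction and 29.7% toward DPC, and all 6 also passed a 2-fold limit, which 11.0% of tested genes passed toward DPC. Groups that do not overlap, with DPC above, were found for 30.8% of tested genes, so the absence of overlap alone sets the 6 apart little. The median log2 difference of the 6 was 5.43, against -0.15 over all tested genes. In bulk RNA, fewer cells that express a gene cannot be told apart from less RNA per cell.

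**Figure D1:**
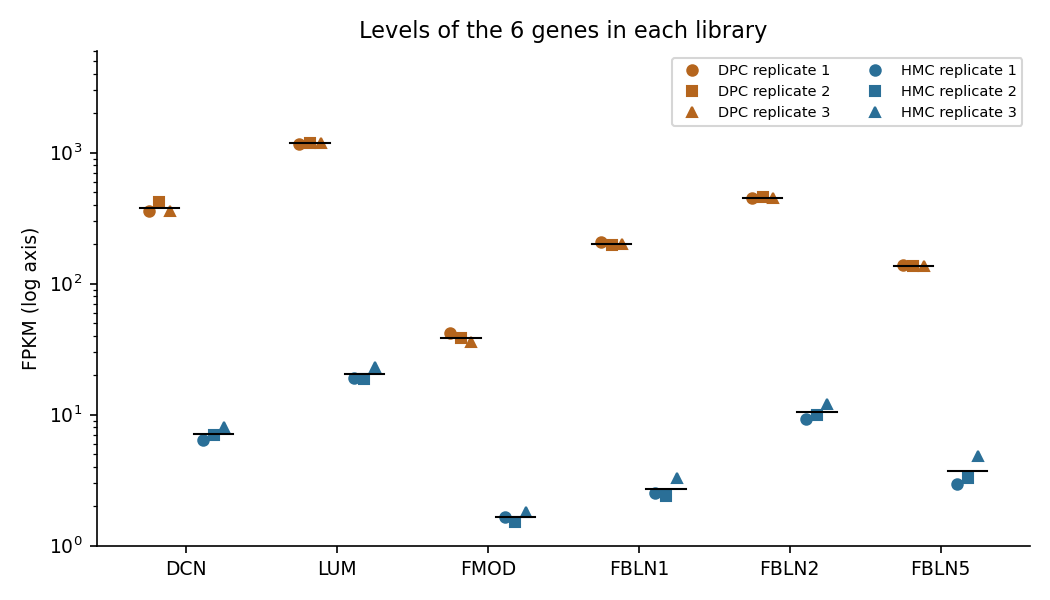
FPKM (log axis) of the 6 genes in each library, DPC left of HMC for each gene, with replicates as circle, square and triangle and the group mean as a line. LUM is the highest gene in both cell types at means of 1180.4 FPKM in DPC cultures and 20.4 FPKM in HMC, FMOD is the lowest at 38.7 and 1.65 FPKM, and the triangle of HMC replicate 3 is the highest HMC point of every gene.

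Lumican, which carries keratan sulfate in some tissues and spaces collagen fibrils, was the most abundant of the 6. Its row (ENSBGRG00000002309) had 1173, 1193 and 1175 FPKM in the DPC cultures and 19.2, 18.8 and 23.3 FPKM in the HMC cultures. The DPC cultures lay close together, with a coefficient of variation of 0.912%, and the HMC cultures varied by 12.2%. The means were 1180.4 ± 10.8 FPKM in DPC cultures and 20.4 ± 2.48 FPKM in HMC cultures (SD, n = 3 each), a 57.8-fold difference. On the log2(FPKM + 1) scale the difference was 5.79 (SE 0.07, limma adjusted p = 1.60e-10). Lumican ranked 49th of 15646 genes by mean FPKM in DPC cultures and 4382nd in HMC.

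Decorin, the proteoglycan with a chondroitin or dermatan sulfate chain (ENSBGRG00000002168), had 362, 421 and 359 FPKM in DPC cultures and 6.37, 7.04 and 8.08 FPKM in HMC. DPC replicate 2 was the high culture of its group. The log2 difference was 5.55 (SE 0.09, limma adjusted p = 4.84e-10), with a 53.1-fold ratio of means. Fibromodulin, which shares a collagen binding site with lumican and guides collagen cross-linking, was the least abundant. Its row (ENSBGRG00000026323) had 42.0, 38.3 and 35.8 FPKM in DPC cultures and 1.65, 1.51 and 1.80 FPKM in HMC. Its 23.4-fold ratio was the smallest of the 6, with a log2 difference of 3.90 (SE 0.08, limma adjusted p = 1.67e-09). Its HMC values rest on at least 26, 24 and 29 reads, and their counting intervals all overlap.

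Among the fibulins, FBLN2, which lies in basement membrane zones and on elastic fibres, was the most abundant. Its row (ENSBGRG00000017885) had 447, 462 and 449.5 FPKM in DPC cultures and 9.34, 9.93 and 11.99 FPKM in HMC, a 43.5-fold ratio. The log2 difference was 5.32 (SE 0.08, limma adjusted p = 3.26e-10). FBLN1, which binds fibronectin and nidogen (ENSBGRG00000000902), had 207, 197 and 202 FPKM in DPC cultures and 2.51, 2.39 and 3.27 FPKM in HMC. Its 74.1-fold ratio was the largest of the 6, with a log2 difference of 5.77 (SE 0.09, limma adjusted p = 3.45e-10). FBLN5, which tethers elastin to cell surface integrins (ENSBGRG00000017027), had 138, 136 and 135 FPKM in DPC cultures and 2.97, 3.31 and 4.84 FPKM in HMC. The HMC cultures spread most for this gene, with a coefficient of variation of 26.9%, against 1.03% in DPC. The ratio of means was 36.8-fold and the log2 difference 4.89 (SE 0.13, limma adjusted p = 6.82e-09).

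The added 1 in the log2 scale holds down the differences of genes that are low in HMC. With limma-voom on the reads recovered from the FPKM steps, the log2 difference was 4.52 for FMOD, 5.22 for FBLN5, 5.44 for FBLN2, 5.72 for DCN, 5.85 for LUM and 6.21 for FBLN1. In the ranking of log2 differences toward DPC over all 11883 tested genes, LUM was 17th, FBLN1 18th, DCN 28th, FBLN2 40th, FBLN5 59th and FMOD 152nd. Over all 14 alternative settings each of the 6 kept its direction and its call, with log2 differences between 3.84 and 6.21.

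The order of levels in DPC was LUM, FBLN2, DCN, FBLN1, FBLN5 and FMOD, and no neighbours in that order overlapped between cultures. In HMC the order was LUM, FBLN2, DCN, FBLN5, FBLN1 and FMOD. There FBLN5 and FBLN1 changed places and their ranges, 2.97 to 4.84 FPKM and 2.39 to 3.27 FPKM, overlapped. FPKM is scaled by gene length, so these levels of different genes can be set side by side. Together the 6 genes summed to 2356 to 2447 FPKM in DPC cultures and 42.0 to 53.3 FPKM in HMC, which was 0.425 to 0.446% of all FPKM of a DPC library and 0.00645 to 0.00822% of an HMC library.

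Ratios within a library do not depend on how libraries are scaled, and 3 of 4 ratios between members differed between the cell types without overlap. How often ratios of other gene pairs do so was not tested. Of single tested genes, 30.8% lay without overlap with DPC above and 47.1% with HMC above, so the absence of overlap is common. The ratio of FBLN5 to FBLN1 was 0.669, 0.691 and 0.671 in DPC and 1.18, 1.39 and 1.48 in HMC. The ratio of FMOD to DCN was 0.116, 0.0909 and 0.0998 in DPC and 0.259, 0.214 and 0.223 in HMC. The ratio of FBLN2 to FBLN1 was 2.17, 2.34 and 2.23 in DPC and 3.72, 4.16 and 3.66 in HMC. All 3 ratios were thus higher in HMC, where FBLN5, FMOD and FBLN2 kept more of their DPC level than their partner gene did. The ratio of LUM to DCN was 3.24, 2.83 and 3.28 in DPC and 3.01, 2.67 and 2.88 in HMC, and the groups overlapped. Each of the 4 log2 ratios of FPKM + 1 gave an exact permutation p of 0.1 (two-sided, n = 3 each), the smallest that 3 against 3 cultures allow, so none could pass 0.05. For LUM to DCN that p rests on the added 1, since a pseudocount of 0.1 gave an exact permutation p of 0.3 (n = 3 each), with log2 differences of 0.24 and 0.14 at the larger and smaller pseudocount. The added 1 moved the difference of the FBLN2 to FBLN1 log2 ratio, DPC minus HMC, to -0.46, against -0.78 without it.

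**Figure D2:**
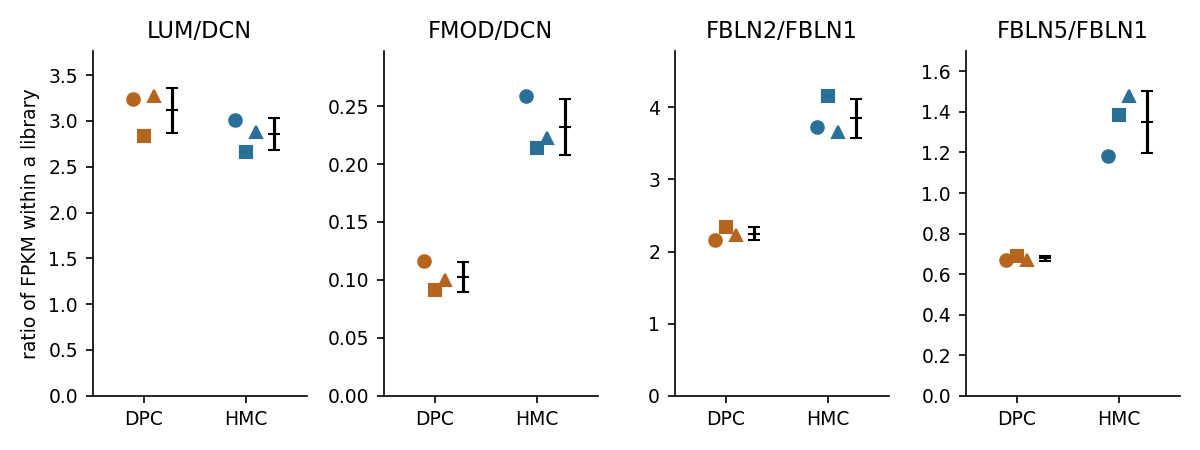
Ratio of FPKM between members within each library (linear axes from 0), DPC left of HMC, replicates as circle, square and triangle, with mean and SD beside them (n = 3 each). FBLN5/FBLN1 averages 0.677 in DPC and 1.35 in HMC, FMOD/DCN 0.102 and 0.232, and FBLN2/FBLN1 2.25 and 3.85, while LUM/DCN overlaps between the cell types.

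HMC replicate 3 was the highest HMC culture for all 6 genes, whereas 37.1% of all tested genes were highest in that culture. Its level over the mean of HMC replicates 1 and 2 ranged from 1.14-fold for FMOD to 1.54-fold for FBLN5. Counting intervals were formed from the recovered reads and put on the FPKM scale, which takes library depth into account. For FBLN2 the exact Poisson 95% interval was 11.2 to 12.8 FPKM in HMC replicate 3, above those of replicate 1, 8.64 to 10.1 FPKM, and replicate 2, 9.21 to 10.7 FPKM. For LUM the interval of replicate 3, 21.24 to 25.44 FPKM, lay above that of replicate 2, 16.95 to 20.75 FPKM. It also lay, narrowly, above that of replicate 1, 17.34 to 21.21 FPKM. For FBLN5 the interval of replicate 3, 4.05 to 5.75 FPKM, lay above that of replicate 1, 2.35 to 3.71 FPKM. It overlapped that of replicate 2, 2.66 to 4.08 FPKM, at its lower end. For DCN, FMOD and FBLN1 the interval of replicate 3 overlapped those of both other HMC cultures. These intervals cover counting error only and rest on lower limits of the reads. HMC replicate 3 also lay apart on the second principal component of all tested genes, at 13.9 against -9.32 and -4.28 for the other HMC cultures, on a component with 0.77% of the variance. Without it the log2 differences of the 6 stayed past the threshold.

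Fibroblast markers moved with the 6 genes. All 11 matched markers of the fibroblast list were tested and higher in DPC, the direction of 29.7% of all tested genes. Their summed level was 18446 to 19477 FPKM in DPC cultures and 669 to 776 FPKM in HMC. In HMC the 6 genes stood at 1.35 to 4.27% of their DPC mean, within the 0.764 to 10.3% of the fibroblast markers. TWIST1 (in the table TWIST), a mesenchymal transcription factor, held the lowest share, and VIM, the mesenchymal intermediate filament gene, was the most abundant marker at 5517 ± 231 FPKM in DPC cultures and 384 ± 43.5 FPKM in HMC cultures (SD, n = 3 each). COL1A1 and CDH11 had log2 differences of 6.20 and 5.80. Of the 11 markers, 7 were highest in HMC replicate 3, whose summed level was 776 FPKM against 698 and 669 FPKM in HMC replicates 1 and 2. The part of fibroblast-like cells within the HMC cultures in these values was not tested.

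**Figure D3:**
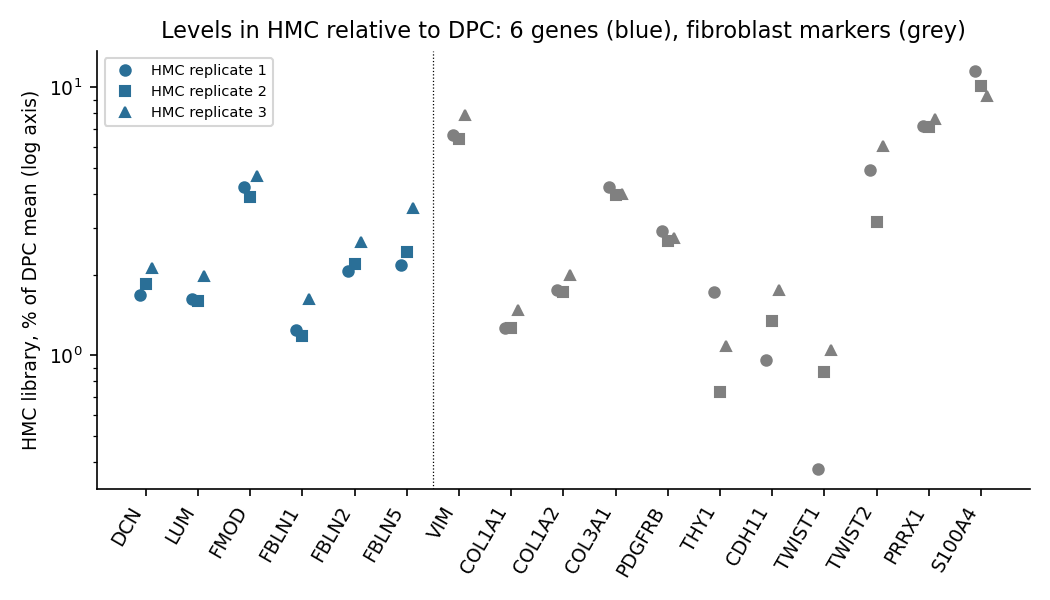
Level in each HMC library as a percentage of the DPC mean (log axis) for the 6 genes in blue and 11 fibroblast markers in grey, with HMC replicates as circle, square and triangle. The 6 genes average between 1.35 and 4.27% and the markers between 0.764 and 10.3%.

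Epithelial markers went the other way, with 15 of 16 higher in HMC, the direction of 46.2% of all tested genes, and with 95.4 to 126 FPKM in DPC cultures and 14464 to 14872 FPKM in HMC in sum. The exception was KRT14, a basal keratin, at 16.2 ± 3.63 FPKM in DPC cultures and 15.0 ± 0.330 FPKM in HMC (limma adjusted p = 0.605). KRT7, KRT8, KRT18 (PIG46) and KRT19, keratins of simple epithelia, had log2 differences between -8.52 and -7.67. The other marker lists showed no common direction. PECAM1 and CDH5, which define endothelium, were at no more than 0.0653 FPKM in any library. The endothelial list summed to 60.3 to 63.4 FPKM in DPC cultures and 3.16 to 3.34 FPKM in HMC, with 2 tested genes, ENG, higher in DPC, and VWF (F8VWF), higher in HMC. Of 4 tested melanocyte genes, EDNRB, SOX10 and PMEL (PMEL17) were higher in HMC and MITF (BHLHE32) was higher in DPC. PMEL passed narrowly, with a log2 difference of -0.31 (limma adjusted p = 0.0484), and lost its call under most alternatives, such as without a filter on low values and in 4 of the 6 fits that leave out a culture. The melanocyte list summed to 5.96 to 6.33 FPKM in DPC cultures and 69.6 to 74.1 FPKM in HMC, and MLANA (MART1) was at 0 in all DPC and 2 HMC libraries. Of 5 immune genes, 3 were higher in HMC, with CD74 (DHLAG) and AIF1 among them, and LAPTM5 in DPC, while CD3E and CSF1R (FMS) stayed at or below 0.0393 FPKM. The immune list summed to 13.8 to 14.5 FPKM in DPC cultures and 416 to 433 FPKM in HMC. Of 6 pericyte and smooth muscle genes, 4 were higher in DPC, with ACTA2 (Actsa) and CNN1 among them, and 2 in HMC, with MCAM (MUC18) among them. That list summed to 12312 to 12709.8 FPKM in DPC cultures and 1729 to 1788 FPKM in HMC, with RGS5 at 0 in all HMC libraries. Single genes made up most of several of these sums. Means were 60.8 FPKM for ENG in DPC cultures, and 64.7 FPKM for EDNRB and 409 FPKM for CD74 in HMC. ACTA2 and TAGLN (SM22) made up most of the pericyte and smooth muscle sum in DPC cultures, at 9321 and 2952 FPKM. What part cells of the kinds in these lists have in the levels of the 6 genes was not tested.

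Other small leucine-rich proteoglycans that were tested were also higher in DPC, where each averaged below the least abundant of the 6 genes, FMOD. Of 15 listed, 11 were matched, 6 were tested and all 6 tested were higher in DPC, each past the 2-fold limit. Of all tested genes 29.7% were higher in DPC, and 11.0% passed that limit toward DPC. Their median log2 difference was 2.33. The matrix proteoglycan PRELP stood at 19.3 ± 0.900 FPKM in DPC cultures and 0.866 ± 0.091 FPKM in HMC (log2 difference 3.44; SD, n = 3 each). Biglycan (BGN), the closest relative of decorin, stood at 26.1 ± 0.650 FPKM in DPC cultures and 4.95 ± 0.378 FPKM in HMC. Tsukushi (TSKU, in the table Lrrc54), a secreted modulator of BMP and WNT signals, was the most abundant of this list at 35.3 ± 1.84 FPKM in DPC cultures and 7.51 ± 0.322 FPKM in HMC. Osteoglycin (OGN, in the table OIF), ECM2 and asporin (ASPN) had DPC means of 8.71, 4.49 and 4.09 FPKM. Their HMC means were 0.285, 0.034 and 0.065 FPKM, so they passed the filter at a mean of 0.5 FPKM only through DPC. Asporin rested on at least 60, 67 and 55 recovered reads in DPC and on 3, 0 and 0 in HMC, and ECM2 on at least 121, 137 and 120 reads in DPC and on 1, 0 and 2 in HMC. The other 5 matched genes averaged under 0.5 FPKM over the 6 libraries and were not tested. Among them CHAD averaged 0.346 FPKM in DPC cultures and 0.618 FPKM in HMC, and NYX 0.113 FPKM in DPC cultures and 0.136 FPKM in HMC.

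These genes lie in clusters, and neighbours differed widely in level. In the RefSeq annotation of the yak assembly Bosgru_T2T1.0, which may not be the build of the deposited table, EPYC, KERA, LUM and DCN follow each other with no other protein-coding gene between them. LUM and DCN stood at 1180.4 and 380.4 FPKM in DPC. Keratocan (KERA), the corneal member, had 0.133, 0.204 and 0.201 FPKM in DPC, which rests on at least 2, 3 and 3 reads, and was listed at 0 in HMC. Epiphycan (EPYC, in the table DSPG3), a cartilage member, had 0, 0.119 and 0.196 FPKM in DPC cultures and was listed at 0 in HMC. OGN, OMD, ASPN and ECM2 also follow each other, and there OMD had at most 0.178 FPKM in DPC cultures and was listed at 0 in HMC. PRELP and FMOD are adjacent, at 19.3 and 38.7 FPKM in DPC cultures and 0.866 and 1.65 FPKM in HMC.

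Further rows of the fibulin family are listed under older symbols, and their identity rests on the symbol and on any annotation of the row. The row TM14, an older symbol of fibulin 7 (FBLN7), is annotated with heparin binding and cell adhesion and was higher in HMC. It had 1.83, 1.93 and 2.02 FPKM in DPC cultures and 257, 248.5 and 223 FPKM in HMC, a log2 difference of -6.38 (SE 0.07, limma adjusted p = 6.57e-11). In HMC it thus exceeded FBLN1, FBLN2 and FBLN5 together, which summed to 14.8 to 20.1 FPKM there. The row FBLN3, an older symbol of EFEMP1 with no annotation to check it, had 21.2 ± 1.37 FPKM in DPC cultures and 22.5 ± 1.26 FPKM in HMC and did not pass (limma adjusted p = 0.299), and the sign of its difference depended on scaling. Hemicentin 1 (HMCN1, in the table FIBL6), a very large relative, had 44.6 ± 2.17 FPKM in DPC cultures and 0.234 ± 0.056 FPKM in HMC (log2 difference 5.21; SD, n = 3 each).

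**Figure D4:**
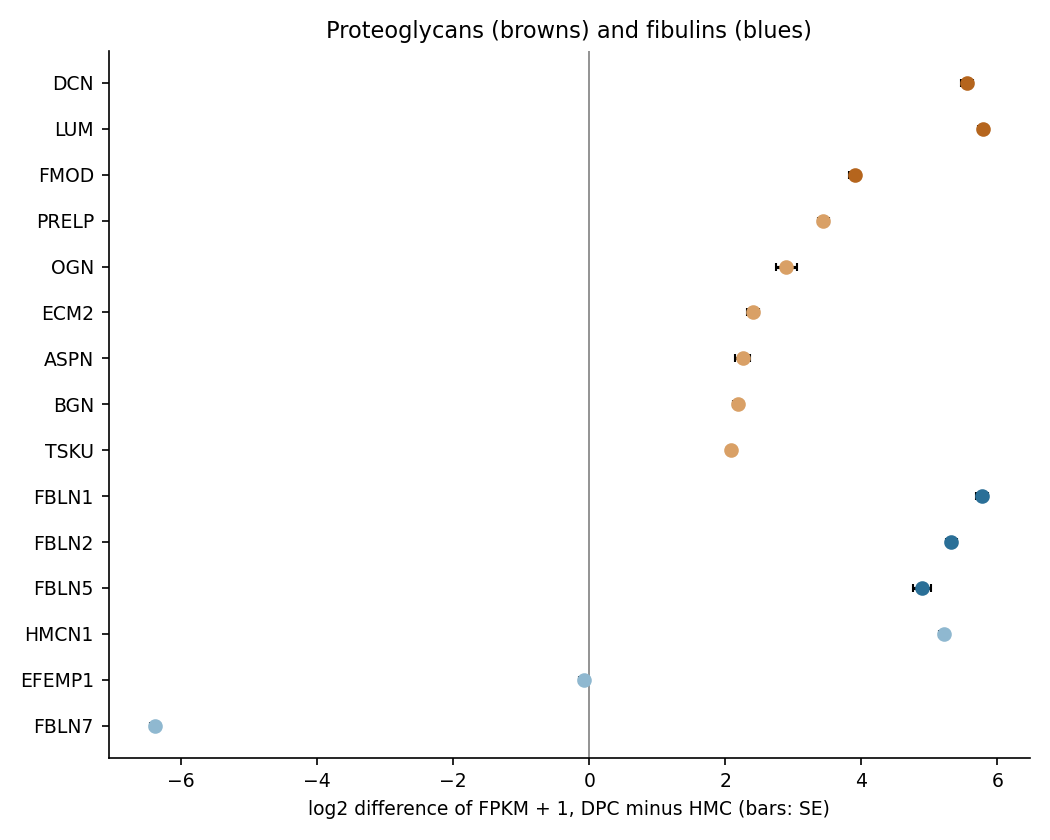
Log2 difference of FPKM + 1, DPC minus HMC, with its SE, for the tested small leucine-rich proteoglycans (browns, the 3 members darker) and fibulins (blues, the 3 members darker). FMOD, LUM, DCN and 6 relatives lie right of 0, FBLN1, FBLN2, FBLN5 and HMCN1 between 4.89 and 5.77, EFEMP1 at -0.08 and FBLN7 at -6.38.

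Elastic fibre genes, whose products fibulins help to assemble, were mostly higher in DPC. With the other fibulins this list had 19 tested genes, of which 14 passed toward DPC, 3 passed toward HMC and 2 did not pass. For comparison, 29.7% of all tested genes passed toward DPC and 46.2% toward HMC. The median log2 difference of the list was 3.15, against -0.15 over all tested genes. Elastin itself (ELN) was low, at 5.14 ± 0.359 FPKM in DPC cultures and 0.064 ± 0.036 FPKM in HMC. The microfibril genes FBN1 and MFAP5 (MAGP2) were abundant in DPC, FBN1 at 368 ± 21.6 FPKM in DPC cultures and 21.7 ± 0.918 FPKM in HMC and MFAP5 at 75.8 ± 4.73 FPKM in DPC cultures and 0.757 ± 0.050 FPKM in HMC. The cross-linking enzyme LOX had 351 ± 6.15 FPKM in DPC cultures and 6.87 ± 1.53 FPKM in HMC (log2 difference 5.50; SD, n = 3 each). Its relative LOXL1, which binds fibulin 5 in elastic fibre assembly, was higher in HMC, with 242, 228 and 228 FPKM in DPC cultures and 422.5, 416 and 397 FPKM in HMC (log2 difference -0.82). The latent TGF-beta binding protein LTBP1 was also higher in HMC by a small factor (log2 difference -0.49), and its relative LTBP2, a microfibril protein that binds fibulin 5, was higher in DPC (4.44). LOXL3 did not pass, with a log2 difference of 0.09 (limma adjusted p = 0.381).

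Genes of the collagen fibril, the surface on which decorin, lumican and fibromodulin act, were higher in DPC in 19 of 20 cases, with a median log2 difference of 4.48. Over all tested genes 29.7% were higher in DPC. COL1A1, COL1A2 and COL3A1 also stand in the fibroblast marker list, so these lists are not independent. COL11A1 (COLL6) had the largest difference, 6.29, followed by COL1A1 with 6.20 and COL1A2 with 5.76. COL1A2 was the most abundant in DPC, at 5051 ± 202 FPKM in DPC cultures and 92.1 ± 7.37 FPKM in HMC cultures (SD, n = 3 each). The exception was BMP1, a protease that trims procollagens, at 39.8 ± 0.285 FPKM in DPC cultures and 45.1 ± 1.60 FPKM in HMC, and its call was lost under both rescalings tried, median-of-ratios and quantile.

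Enzymes that build the sugar chains of proteoglycans were split. Of 18 tested, 9 passed toward DPC, 6 passed toward HMC and 3 did not pass. The shares over all tested genes were 29.7% toward DPC and 46.2% toward HMC. The median log2 difference of these enzymes was 0.26, against -0.15 over all tested genes. CHST2 (GN6ST), a sulfotransferase able to act on keratan chains, stood at 15.8 ± 1.02 FPKM in DPC cultures and 0.574 ± 0.134 FPKM in HMC (log2 difference 3.42; SD, n = 3 each). The chondroitin synthase CHSY3 (CHSY2) stood at 11.2 ± 0.954 FPKM in DPC cultures and 0.432 ± 0.148 FPKM in HMC. DSE, the epimerase that turns chondroitin into dermatan sulfate, stood at 64.1 ± 1.13 FPKM in DPC cultures and 28.3 ± 1.87 FPKM in HMC, and UST, which sulfates dermatan chains, had a log2 difference of 1.28. B3GNT7, which extends keratan chains, was listed at 0 in all DPC cultures and at 2.34, 1.78 and 2.00 FPKM in HMC. FAM20B, the kinase of the linkage region, was higher in HMC (log2 difference -1.12). UGDH, which makes a sugar precursor, had the highest mean over all 6 libraries, at 54.4 ± 1.41 FPKM in DPC cultures and 59.4 ± 2.73 FPKM in HMC and did not pass (limma adjusted p = 0.0514), and its sign depended on scaling. XYLT2 and B3GNT2, which start the linkage region and extend keratan chains, did not pass either, with log2 differences of 0.10 and -0.15, and the sign of the B3GNT2 value also depended on scaling.

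Proteases known to cleave these proteins, with their inhibitors, were split. Of 15 tested, 8 were higher in DPC and 7 in HMC, against 29.7% and 46.2% of all tested genes. Their median log2 difference was 0.84, against -0.15 over all tested genes. The gelatinase MMP2 stood at 2543 ± 94.97 FPKM in DPC cultures and 50.5 ± 5.64 FPKM in HMC (log2 difference 5.63; SD, n = 3 each). MMP9 and MMP7 (MPSL1) had log2 differences of -6.49 and -5.95, higher in HMC. MMP7, which is able to cleave decorin, had 0, 0.0773 and 0.0763 FPKM in DPC cultures and 71.55, 63.85 and 56.64 FPKM in HMC. The aggrecanases ADAMTS4 and ADAMTS5 (ADAMTS11) had log2 differences of 1.35 and 1.52, higher in DPC. Of the inhibitors, TIMP1 and TIMP2 were higher in DPC and TIMP3 in HMC, the last at 389 ± 5.44 FPKM in DPC cultures and 1203 ± 27.8 FPKM in HMC.

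Receptors, growth factors and matrix partners bound by these proteins were also split. Of 23 tested, 13 were higher in DPC and 10 in HMC, against 29.7% and 46.2% of all tested genes. Their median log2 difference was 0.40, against -0.15 over all tested genes. Nidogen 1 (NID1, in the table NID), a basement membrane partner of fibulins, stood at 320.1 ± 14.5 FPKM in DPC cultures and 3.27 ± 0.653 FPKM in HMC (log2 difference 6.24; SD, n = 3 each). Fibronectin (FN1) was higher in HMC, at 1275 ± 32.2 FPKM in DPC cultures and 1571 ± 88.5 FPKM in HMC (log2 difference -0.30). Integrin chains were split. ITGA2 (-5.44), ITGB3 (GP3A, -2.98) and ITGAV (-0.78) were higher in HMC, and ITGA4 (CD49D, 3.61), ITGA5 (FNRA, 2.74) and ITGB5 (1.53) in DPC. Versican (VCAN, in the table CSPG2), a large proteoglycan that fibulins bind, stood at 105 ± 7.48 FPKM in DPC cultures and 2.58 ± 0.518 FPKM in HMC. The endocytic receptor LRP1 (A2MR), which takes up decorin, had a log2 difference of 4.38. CTGF, a decorin-binding matricellular factor, was the most abundant of this list in DPC and over all 6 libraries, at 2602 ± 95.4 FPKM in DPC cultures and 500.1 ± 1.78 FPKM in HMC. MET, the receptor that decorin is known to antagonise, had 8.68, 9.07 and 8.75 FPKM in DPC cultures and 98.7, 102 and 108 FPKM in HMC (log2 difference -3.40). TLR4 and TLR2, biglycan receptors, had log2 differences of -2.52 and -0.74, and IGF1R, which decorin also binds, was higher in DPC with one of 0.71. The EGF receptor ligand HBEGF (DTR) and PDGFB had log2 differences of -5.53 and -6.83, higher in HMC. Of the TGF-beta ligands that these proteoglycans bind, TGFB1 differed by 0.23, TGFB2 by -1.32 and TGFB3 by 1.51.

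**Figure D5:**
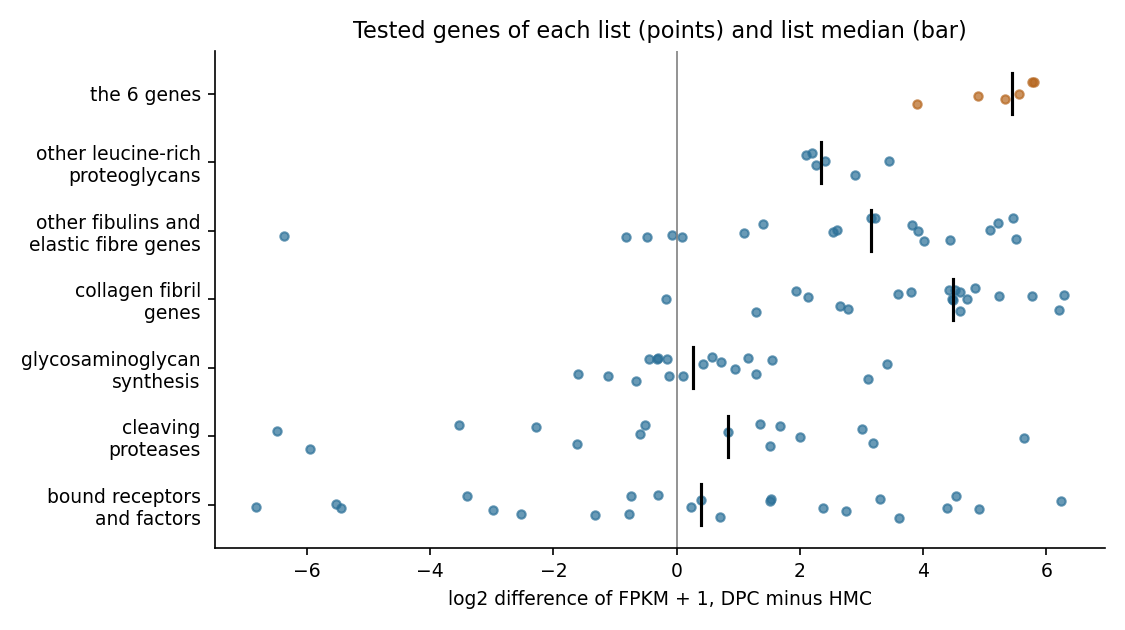
Log2 difference of FPKM + 1, DPC minus HMC, of every tested gene (points) with the list median (bar), for the 6 genes and 6 companion lists. The medians are 5.43 for the 6 genes, 4.48 for collagen fibril genes, 3.15 for other fibulins and elastic fibre genes, 2.33 for other proteoglycans, and 0.26 to 0.84 for sugar chain enzymes, proteases and bound receptors and factors.

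Annotation terms of the table that 2 or more of the 6 genes carry gave a similar division, with the 6 genes left out. Of 69 other tested genes of collagen-containing extracellular matrix, a term carried by DCN, FMOD, FBLN2 and FBLN5, 47 were higher in DPC (68.1%) and 20 in HMC. Of 30 with collagen binding, 20 were higher in DPC and 8 in HMC, and of 27 with collagen fibril organization, 18 and 8. Calcium ion binding, which FBLN1, FBLN2 and FBLN5 share, had 116 of 289 higher in DPC (40.1%) and 140 in HMC. Over all 11883 tested genes the shares were 29.7% higher in DPC and 46.2% higher in HMC.

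The genes nearest to each of the 6 in level and pattern were found by Euclidean distance of log2(FPKM + 1) over the 6 libraries. Nearest to DCN was thrombospondin 2 (in the table TSP-2) at a distance of 0.15, with 369, 381 and 361 FPKM in DPC cultures and 6.41, 7.09 and 7.96 FPKM in HMC, followed by LOX at 0.45. Nearest to LUM were the type V collagen genes COL5A1 and COL5A2, at 1.15 and 1.19. FBLN1 was nearest to LARP6, an RNA-binding protein of collagen mRNAs, at 0.29 and to the cadherin gene CDH11 at 0.33. FBLN2 was nearest to the tropomyosin gene TPM2 at 0.28 and to the procollagen C-proteinase enhancer PCOLCE (Pcpe1) at 0.81. FBLN5 was nearest to the row called DOC2 at 0.31 and to nerve growth factor (NGFB) at 0.44, and FMOD to STAC at 0.29 and to the row called CLECSF3 at 0.35. The distance counts the level in each library as well as the difference between the cell types.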

How the data were processed

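RNA-seq values of 3 DPC and 3 HMC cultures were taken from a table deposited by the authors in FPKM, with 1 column per sample. Libraries were made with a stranded TruSeq mRNA kit, per the labels' protocols. Tools listed without roles, per the submitters' processing notes, are Trimmomatic, DESeq 1.20.0 and HISAT2 2.2.1.0. The read counter, build and annotation: not given in the sources used here. FPKM corrects for gene length and depth, not for RNA composition. The values of all 15646 genes (100%) were whole multiples of 1 step per gene within a relative tolerance of 1e-09. The reads recovered from the steps summed to 13.1 to 13.4 M in DPC and 13.7 to 14.0 M in HMC (M, mega) and are lower limits, known up to a factor per gene.

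The test was limma 3.58.1 (run in R 4.3.3) of DPC minus HMC on log2(FPKM + 1), two-sided, its prior variance following a trend, for the 11883 genes averaging 0.5 FPKM or more. The p-values were adjusted over all of them (Benjamini-Hochberg, threshold 0.05). Such differences understate low genes. Ratios were tested by exact permutation in Python 3.11.15 with scipy 1.17.1. The procedure was tested on simulated data. The 6 companion lists held 148 genes, of which 113 were matched, 36 of them through an older symbol, which is given in parentheses, and the identity of those rows rests on the symbol and any annotation. The 6 marker lists were matched likewise, and unmatched genes were not analysed here. Reads of close relatives may be shared. The members and lists were chosen with earlier results of these data known. Genes named are the 6, up to 3 list genes of largest difference, the most abundant list gene and 2 nearest genes for each of the 6. Other list genes were named after their values were seen. Alternatives were a pseudocount of 0.1, other filters (none, 5 FPKM), both rescalings, limma-voom on recovered reads, an untrended prior, the replicate block and each culture left out. Same-numbered cultures were not paired, since deviations of same-numbered cultures correlated at 0.023, 0.034 and 0.006.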

Additional observations from a re-analysis of the deposited data

How the results depend on the processing

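Each of the 6 genes kept its direction and call under all 14 alternatives, with the largest adjusted p at 2.93e-07. Leaving out each culture in turn moved counts of list genes by over 1.5 times in 3 places: the tested proteoglycan relatives higher in HMC numbered 0 or 1 (1 without HMC replicate 3), the epithelial markers higher in DPC 0 or 1 (1 without DPC replicate 2) and the endothelial markers higher in HMC 0 or 1 (0 without HMC replicate 1, 2 or 3). It moved 4 others less, sugar chain enzymes higher in HMC (5 to 7), melanocyte markers higher in HMC (2 to 3), proteases higher in HMC (6 to 7) and elastic fibre genes higher in DPC (13 to 14). With a filter at 5 FPKM fewer genes are tested, and the counts were 3 proteoglycan relatives and 5 sugar chain enzymes higher in DPC, 4 proteases higher in HMC, 0 endothelial markers higher in HMC, 0 melanocyte markers higher in DPC and 1 higher in HMC, 0 immune markers higher in DPC and 1 pericyte marker higher in HMC. Without a filter 3 endothelial markers were higher in DPC. Collagen fibril genes higher in HMC numbered 0 under both rescalings, median-of-ratios and quantile. Quantile normalization turned the log2 difference of B3GNT2 to 0.09, of BMP1 to 0.11, of EFEMP1 to 0.14 and of UGDH to 0.15, and median-of-ratios rescaling turned EFEMP1 to 0.07 and UGDH to 0.03. Over all tested genes the median log2 difference was -0.15 as deposited, 0.05 with quantile values and -0.02 with median-of-ratios factors. With the replicate number as a block, no call of the 6 genes changed, as 6 were higher in DPC, sugar chain enzymes higher in HMC numbered 7 and melanocyte markers higher in HMC 2, and the FBLN5 log2 difference was 4.89. In fits that left out a culture, the filter at 0.5 FPKM was applied anew, so the set of tested genes changed too. VWF, with means of 0.036 FPKM in DPC cultures and 1.08 FPKM in HMC, fell below it without HMC replicate 1, 2 or 3. CHAD, at 0.346 FPKM in DPC cultures and 0.618 FPKM in HMC, passed the filter without HMC replicate 3 and without DPC replicate 2 or 3. The count of proteoglycan relatives higher in HMC was 1 only without HMC replicate 3, so the filter alone does not account for that shift. The cause of the other shifts was not tested. The depth limits genes such as KERA, at most 0.204 FPKM in a library.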
